A study of Mus musculus with 37 samples.

Results

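The libraries described here are 25 lung samples of C57BL/6 mice that differed in how much skeletal muscle RNA they held. Counts per 1000000 (CPM) were taken for each library, and a library was called muscle-rich when Acta1, the actin of the thin filament of skeletal muscle, exceeded 1000 CPM. This gave 13 muscle-rich and 12 muscle-poor libraries, out of 37 in the whole series. The classes were chosen by the measured level of Acta1, so its values and those of the other skeletal muscle genes are given as a description, without a test.

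The mice came from 4 groups, each mouse giving 1 library. Mock mice (n = 7) received 0 Gy, and mock + NR mice (n = 5) received 0 Gy and drank 12 mM nicotinamide riboside (NR), a form of vitamin B3 from which cells make NAD. Silicon mice (n = 7) received 0.75 Gy of accelerated silicon ions at 300 MeV per nucleon, and silicon + NR mice (n = 6) the same ions with 12 mM NR. The other 12 libraries all stayed under the limit and were not classed. Of these, 7 followed a simplified ion mixture that simulates galactic cosmic radiation (GCR) and 5 followed gamma rays. Both exposures were 0.75 Gy, without NR. The sources used here do not give age, the time from exposure to dissection or the piece of lung that was taken. Libraries are named by group and a number that only names the mouse.

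Skeletal muscle is made of fibres whose sarcomeres hold actin thin filaments and myosin thick filaments. The myosin heavy chain that a fibre makes sets its contraction type, and slow, fast and developmental chains are separate genes. Stratified squamous epithelium, which lines the mouth, oesophagus and skin but not the airways of the lung, is built from a basal layer marked by Krt5 and Krt14 and from upper layers. Krt4 and Krt13 are the upper-layer keratins of internal mucosae, and Krt1 and Krt10 those of skin. The airway itself is lined by club cells, which secrete Scgb1a1, and by ciliated cells, and its wall holds cartilage and glands in its upper part.

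Promoters of the genes that marked the classes are shown because muscle genes and squamous genes moved with the classes at once. Each is the 150 bases before a RefSeq start (GRCm38.p6), read 5′ to 3′ on the gene's strand, with motif matches in capitals. The Acta1 window lies at chr8:123894776-123894925 on the minus strand, and the Myh8 window at chr11:67276974-67277123 on the plus strand. Krt13 has 2 RefSeq starts, with windows at chr11:100121567-100121716 and chr11:100120578-100120727, both on the minus strand.
Acta1: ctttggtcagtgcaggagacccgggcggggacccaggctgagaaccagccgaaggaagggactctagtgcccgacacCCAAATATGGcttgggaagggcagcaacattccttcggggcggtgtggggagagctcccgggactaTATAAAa
Myh8: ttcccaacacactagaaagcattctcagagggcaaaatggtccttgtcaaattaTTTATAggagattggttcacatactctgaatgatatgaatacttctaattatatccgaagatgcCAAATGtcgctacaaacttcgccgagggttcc
Krt13, upstream start: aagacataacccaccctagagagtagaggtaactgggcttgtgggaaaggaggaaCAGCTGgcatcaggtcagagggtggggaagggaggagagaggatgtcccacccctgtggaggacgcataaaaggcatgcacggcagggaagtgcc
Krt13, downstream start: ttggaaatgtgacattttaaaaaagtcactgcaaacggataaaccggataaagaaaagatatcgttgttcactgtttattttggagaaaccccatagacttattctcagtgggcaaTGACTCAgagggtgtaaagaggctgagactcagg
Motifs were searched on both strands and their matches shown do not overlap each other. The Acta1 window held 1 CArG box, the binding sequence of serum response factor, 73 bases before the start, and a TATA box (TATAAA) 7 bases before it. The Myh8 window held an E-box (CANNTG), the sequence bound by MyoD family factors, 32 bases before the start, and a TATA box on the opposite strand 96 bases before it. The upstream window of Krt13 held an E-box 95 bases before the start, and the downstream one an AP-1 site (TGANTCA) 34 bases before. Among 32851 promoter windows of the same length, 0.916% held a CArG box, 7.57% a TATA box, 47.7% an E-box and 4.24% an AP-1 site. These matches describe the letters only.

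Acta1 (mm10, chromosome 8, 123891769 to 123894751) ran from 2195 to 36927 CPM in the muscle-rich libraries, with a median of 21179. In the muscle-poor libraries it ran from 2.87 to 402.8 CPM, with a median of 12.5, and in the GCR and gamma libraries from 4.36 to 48.5. Just inside the limit stood mock + NR 5 at 2195 CPM and mock 4 at 3409, and just outside it silicon 3 at 402.8 and silicon + NR 3 at 29.8. Silicon 3 alone stood between the bulk of either class. By group, silicon mice gave 5 of 7 muscle-rich libraries and mock mice 4 of 7. With NR the numbers were 2 of 6 after silicon and 2 of 5 after mock exposure.

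**Figure D1:**
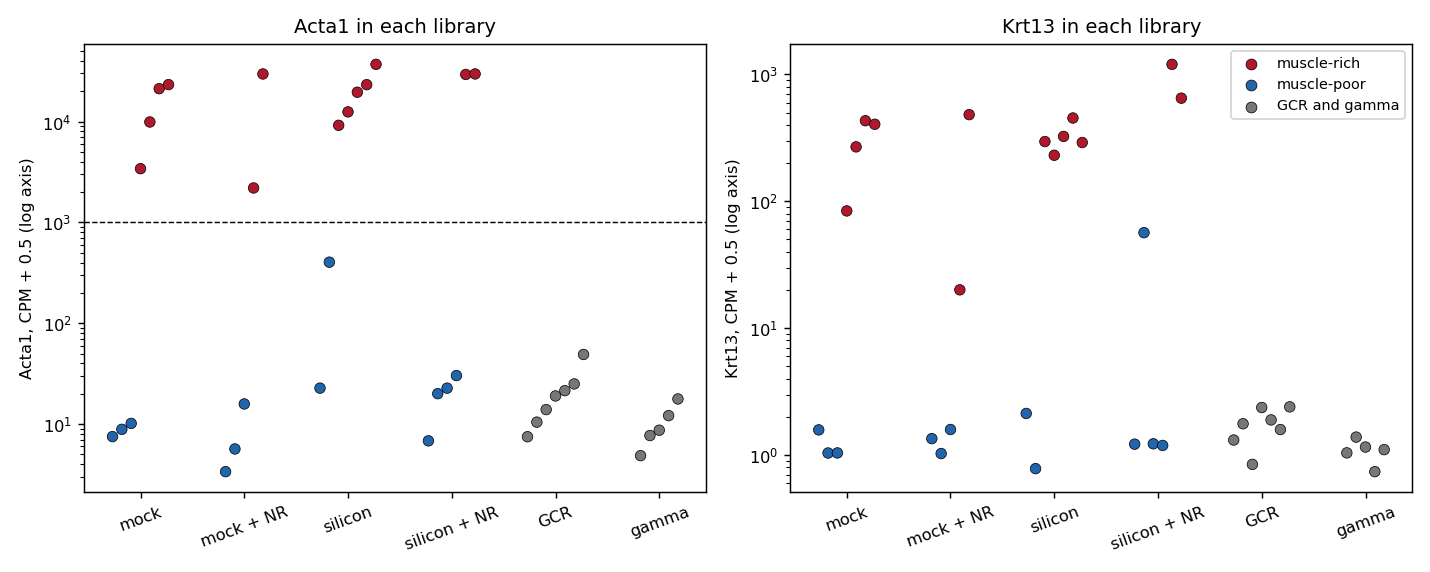
Acta1 and Krt13 in each library, by group, in CPM + 0.5 on log axes. Each point is 1 library, the colours mark the classes, and the dashed line is 1000 CPM. Muscle-rich libraries occurred in 4 groups, and 12 of the 13 also lay above every muscle-poor library in Krt13.

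The other skeletal muscle genes followed Acta1 through every functional class of the sarcomere. All 45 listed genes were measured, and 30 of them were higher in every muscle-rich library than in any muscle-poor one. Across the 17364 genes tested such a complete separation was found in 195 (1.12%), these 30 included, and the reverse in 5 (0.0288%). Together the 45 genes took up to 15.9% of all counts in a library (silicon 4).

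Within the list, the troponin genes of fast fibres were among the highest. Tnnt3 ran from 395 to 9705 CPM in muscle-rich and from 5.85 to 145 in muscle-poor libraries, and Tnnc2 from 344 to 8624 and from 0.68 to 138. Both left a gap between the classes. Ckm, the creatine kinase of muscle, ran from 251 to 3681 CPM against at most 57.5, and Atp2a1, the calcium pump of fast fibres, from 433 to 11034 against at most 77.9. Ckm kept a nearly fixed level relative to Acta1, from 9.25 to 11.4 CPM per 100 CPM of Acta1 in the 13 libraries. Other genes varied more, with Mylpf, a fast light chain, at 6.52 to 30.9 and Tnnt3 at 18.01 to 54.3 per 100 CPM of Acta1, both highest in mock 4. Some genes shared with heart overlapped between the classes. Mb, which encodes myoglobin, ran from 438 to 7447 CPM against 13.3 to 945, and reached 3178 in the GCR and gamma libraries.

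The neuromuscular junction was also present. Chrna1, Chrnd and Musk, encoding receptor subunits of the junction and its organizing kinase, separated the classes completely. Chrna1 ran from 5.10 to 68.9 CPM against 1.02 to 2.32, and Musk from 3.33 to 42.5 against at most 1.06. The other 6 of the 9 junction genes overlapped.

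The skeletal myosins were mostly fast and perinatal chains. Per kilobase of exon, Myh1, the fast type 2X chain, and Myh8, the perinatal chain, were the leading skeletal myosins in every muscle-rich library. Myh8 made up 28.1% to 48.95% of all myosin heavy chain CPM per kilobase outside silicon 4, and Myh1 16.99% to 50.2%. Myh4, the fast type 2B chain, made up 5.43% to 16.4% in the 13 libraries. Myh2, the type 2A chain, reached at most 30.4 CPM, and the slow chain Myh7 at most 13.9, in these 12 libraries. The heart chain Myh6 took 2.08% to 40.3% there, most in mock + NR 5. The exon length used was 11772 bases for Myh8, against 6353 for Myh1, 6016 for Myh4 and 6726 for Myh6. A shorter length for Myh8 would raise its share and lower the others, so the order of these chains depends on it.

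Silicon 4 differed from the other 12. It held 2544 CPM of Myh2 and 761 of Myh7, and slow-fibre genes that were near background elsewhere. Its Myl2, the slow and ventricular light chain, was at 757 CPM against at most 0.42 in the other 24 libraries of the 4 groups, and Tnnt1, the slow troponin T, at 647 against at most 9.75. Myh8 made up 22.4% of its myosins and Myh1 50.1%. These genes were named after their values were seen.

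**Figure D2:**
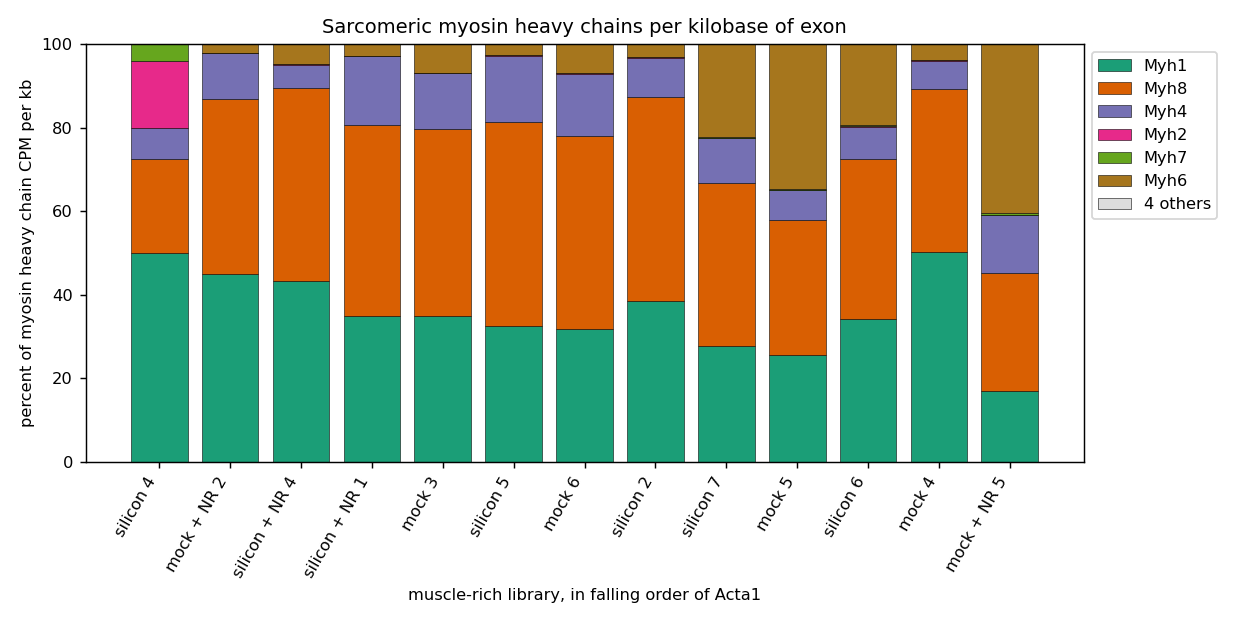
Share of each myosin heavy chain gene in the sum of 10 such genes, in percent of CPM per kilobase of exon, for the 13 muscle-rich libraries in falling order of Acta1. With the exon lengths used, Myh1 and Myh8 fill most of each bar but that of mock + NR 5. There Myh6 has the largest share, which depends on the exon length taken for Myh8. Myh2 and Myh7 are visible in silicon 4 alone.

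Regulators of muscle identity were read from the same libraries. The myogenic factors Myod1, Myog, Myf5 and Myf6, and Isl1, separated the classes completely. Myod1 ran from 0.67 to 27.5 CPM against at most 0.53, and Myf6 from 4.99 to 109 against at most 2.25. Tbx1 and Isl1 are known for the muscles of the head, neck and oesophagus, and Pax3 for those of trunk and limb. Isl1 ran from 3.01 to 52.6 CPM against at most 1.90. Tbx1 ran from 57.2 to 198.5 CPM against 34.4 to 79.9, so it was present in the muscle-poor libraries too. Pax3 was at most at 0.13 CPM in every muscle-rich library but silicon 4, where it was at 5.10.

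Squamous epithelium went with the muscle. Of 37 listed genes 34 were tested, and 30 were higher and 0 lower in muscle-rich libraries, where 20.8% of all genes tested were called higher and 14% lower (edgeR's quasi-likelihood test with group in the model, Benjamini-Hochberg adjusted p under 0.05). Their median difference was 4.44 on the log2 scale, against -0.03 over all genes. Members near 0 in muscle-poor libraries, such as Krt6a (at most 0.18 CPM there), passed the count filter through the muscle-rich libraries. A call on such a member is not independent of the class, so the counts and the median are a description. In this bulk RNA, fewer cells of a type and less RNA per cell cannot be told apart. Every call here says that a gene's level went with the Acta1 class.

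Krt13 (chromosome 11, 100117327 to 100121566) ran from 19.6 to 1200 CPM in muscle-rich libraries, with a median of 324. In muscle-poor libraries it ran from 0.28 to 56.1, with a median of 0.72. Its groups touched through 2 libraries only, mock + NR 5 at 19.6 and silicon + NR 5 at 56.1. The difference was 8.03 (SE 0.87, adjusted p = 2.48e-07). It was positive within each of the 4 groups, at 7.71 in mock, 6.24 in mock + NR, 7.91 in silicon and 8.12 in silicon + NR, on log2(CPM + 0.5).

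Genes of the other layers were higher too. Among suprabasal keratins Krt4 (chromosome 15, 101918535 to 101924735) had a median of 385 CPM against 1.78, a difference of 6.84 (SE 0.90, adjusted p = 3.75e-06). In the basal layer Krt5 (chromosome 15, 101707070 to 101712898) had a median of 334 CPM against 4.05, with a difference of 5.39 (SE 0.87, adjusted p = 4.67e-05). Krt14 had a median of 186 CPM against 0.26 and Trp63, the transcription factor that keeps basal cells, 33.6 against 2.64. In Krt13, Krt4, Krt5 and Krt14, 12 of 13 muscle-rich libraries lay above every muscle-poor one, and mock + NR 5 was the exception in each.

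By role, 7 of 8 basal genes, 4 of 4 tested suprabasal keratins, 10 of 11 tested genes of the cornified envelope, 6 of 7 adhesion and surface genes and 3 of 4 transcription factors rose. These counts include members near 0 in muscle-poor libraries, so they are a description. Sprr3, a cornified envelope protein of internal mucosae, had a median of 5.40 CPM against 0, and Krtdap, a differentiation peptide of keratinocytes, 66.01 against 0.08. The members that did not pass were Krt17, Ivl, Ly6d and Sox2, and Sox2 is also made by airway cells. Basal genes were not confined to the muscle-rich class. Krt15 reached 272 CPM in the muscle-poor silicon 1, where Krt13 was at 3.82 CPM per 100 CPM of Krt5. The skin keratins were not called. Krt1 was at 0.49 to 2.08 CPM in muscle-rich and 1.36 to 3.48 in muscle-poor libraries, and Krt10 at 9.76 to 13.3 and 9.65 to 15.6. Krt6a with Krt6b, Dsg1a with Dsg1b and Sprr1a with Sprr1b are near-identical copies whose split of reads is uncertain.

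Squamous signal and muscle signal did not always coincide. Silicon + NR 5 had the highest Krt13, Krt4, Krt5 and Krt14 of the muscle-poor class, with 69.7 CPM of Krt4, at 19.5 CPM of Acta1. Silicon 3, with 402.8 CPM of Acta1, had 0.28 CPM of Krt13. Among the 13 muscle-rich libraries Krt13 rose with Acta1 (log2 values, Pearson r = 0.894, permutation p = 8e-05, adjusted p = 0.0004 over 5 markers, and Spearman rho = 0.731, adjusted p = 0.0284). Without mock + NR 5 and mock 4, the 2 libraries farthest from the median of Acta1, r was 0.587 (adjusted p = 0.089). The call was thus lost when both were left out. By the same permutation test, r was 0.883 without mock 4 alone (adjusted p = 0.00735). It was 0.809 without mock + NR 5 alone (adjusted p = 0.009). Relative to Acta1, Krt13 ran from 0.79 per 100 CPM in silicon 4 to 4.09 in silicon + NR 1.

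**Figure D3:**
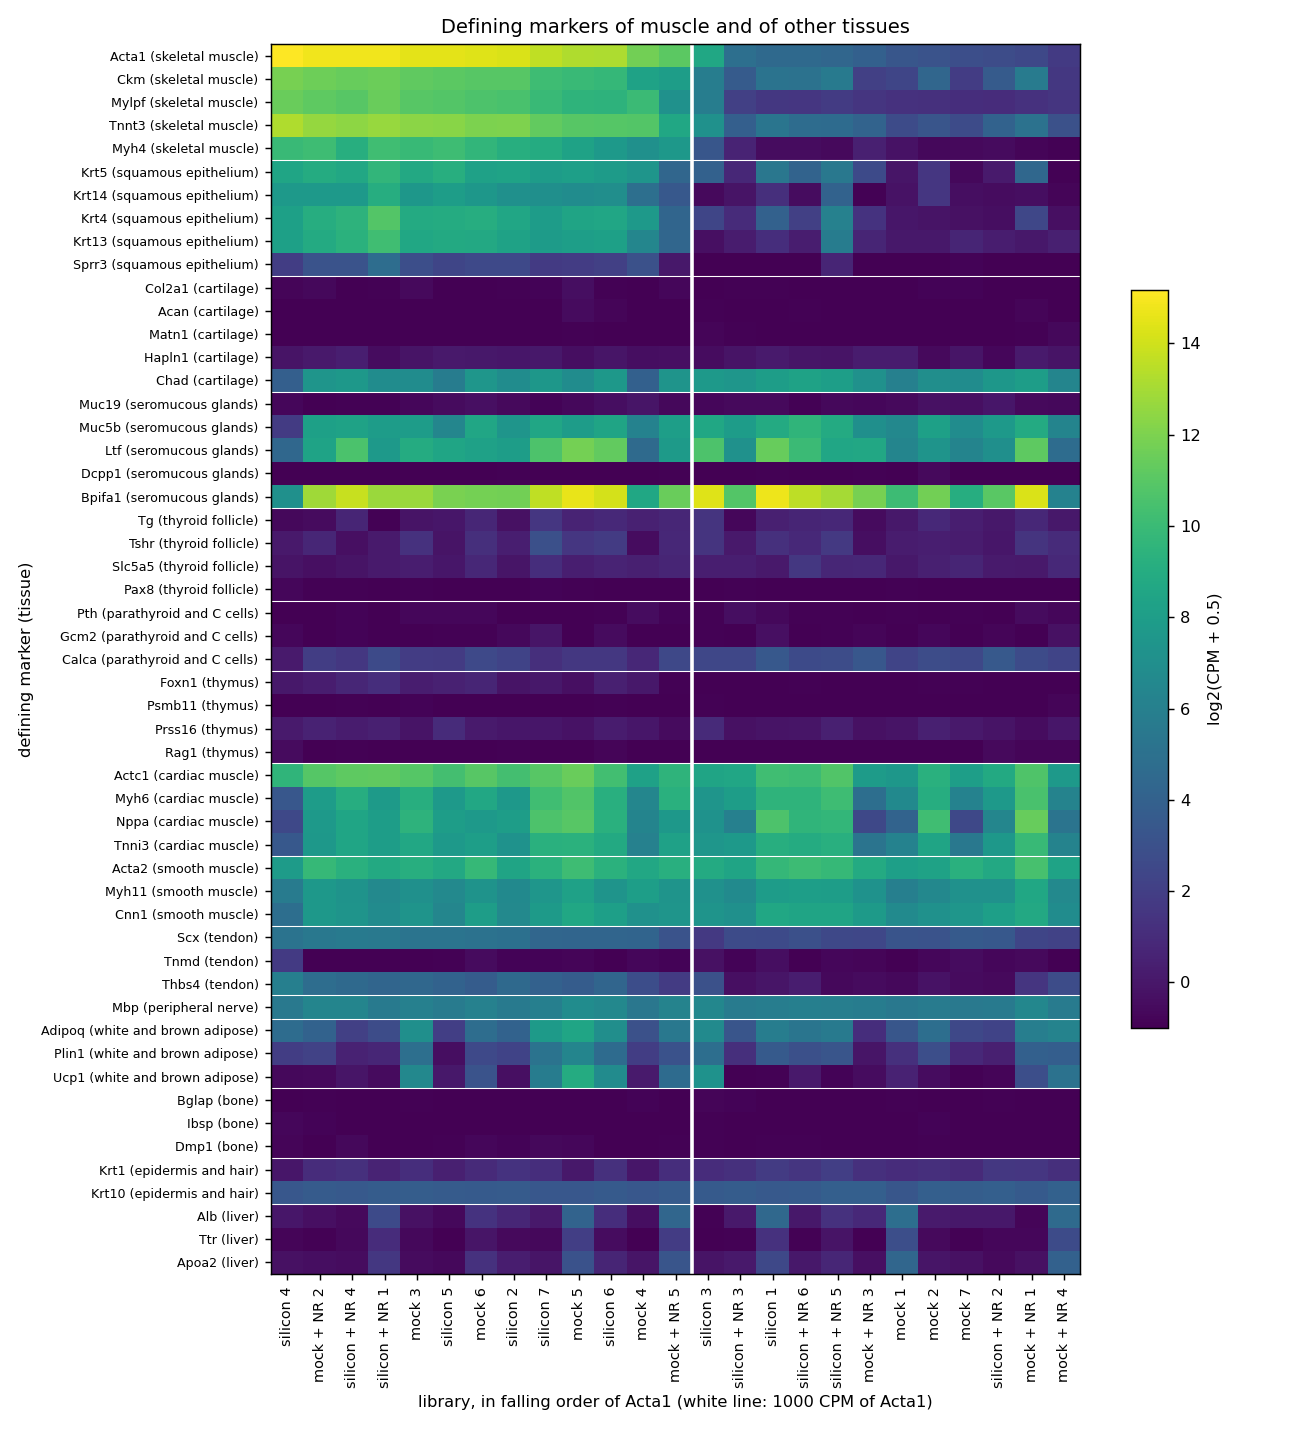
Markers of 15 tissues in the 25 libraries, as log2(CPM + 0.5), with libraries in falling order of Acta1 and a white line at 1000 CPM. Skeletal muscle and squamous markers are bright to the left of the line, and the defining markers of cartilage, thyroid, thymus and bone are dark on both sides apart from Chad.

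The defining genes of cartilage were near 0 in both classes. Col2a1 and Acan, the collagen and proteoglycan that make up cartilage matrix, were at most at 0.26 and 0.18 CPM in muscle-rich libraries, and Matn1 at most at 0.04. In muscle-poor libraries they were at most at 0.07, 0.08 and 0.15. Chad, which is listed for cartilage, ran from 14.2 to 196 CPM against 65.4 to 312 and did not pass the test. Of 24 listed genes 15 were tested, and 6 were higher and 1 lower, with a median of -0.03. Over all genes tested 20.8% were called higher and 14% lower. The count of lower cartilage genes was 2 without silicon 3, mock 4 or mock + NR 4. The 6 included Sox6, a factor that muscle makes as well, at 13.4 to 58.6 CPM against 6.33 to 17.9, and the low-level Col9a2 and Epyc, at most at 1.27 and 1.57 CPM.

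Gland genes gave few calls. Of 20 listed seromucous gland genes 12 were tested, 1 was higher and 1 lower. Over all genes tested 20.8% were called higher and 14% lower. Bpifa1, a secreted protein of upper airway epithelium and glands, ran from 139 to 25035 CPM in muscle-rich and from 71.1 to 27691 in muscle-poor libraries, so the classes covered the same range. Within groups, its difference on log2(CPM + 0.5) was 1.65 in mock, 1.42 in mock + NR and 1.16 in silicon + NR, but -2.87 in silicon. Muc5b, a gel-forming mucin, ran from 3.02 to 382 CPM against 78.9 to 756 and had a difference of -0.18 (SE 0.45, adjusted p = 0.789). The gland mucin Muc19 was at most at 0.44 and 0.49 CPM, and Dcpp1, made by salivary glands, at most at 0.03 and 0.17. Amy1, an amylase, rose from a median of 13.4 to 28.4 CPM (difference 1.66, SE 0.32, adjusted p = 0.000386), and Azgp1 fell from 25.6 to 10.9 CPM (-0.84, SE 0.22, adjusted p = 0.00453).

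Tg and Pax8 were low in both classes, but not every listed thyroid gene was. Tg, the precursor of thyroid hormone (chromosome 15, 66670753 to 66850721), was at 0.03 to 2.45 CPM in muscle-rich and at 0.10 to 2.25 in muscle-poor libraries. Pax8, a factor of thyroid follicle cells, was at most at 0.11 CPM in any of the 25 libraries. Iyd, listed for hormone synthesis and called lower, ran from 3.455 to 23.4 CPM against 9.999 to 40.7. Dio1, also listed, ran from 0.16 to 12.07 CPM against 2.21 to 8.96. Where 20.8% of all genes tested were called higher and 14% lower, 1 of 11 thyroid genes tested was higher and 3 lower. Without silicon + NR 6, mock + NR 1 or mock + NR 5, 2 were higher. Foxe1, the higher one, is also a factor of oral and oesophageal epithelium and stayed at or under 1.15 CPM. Of the lower ones Nkx2-1 is a factor of lung epithelium too, at a median of 57.4 CPM against 112, and Hhex was no longer called without silicon 3 (adjusted p = 0.0754).

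Parathyroid and thymus gave isolated genes at low levels, where 20.8% of all genes tested were called higher and 14% lower. Of 4 tested genes of parathyroid and C cells Casr was higher and Calca, which encodes calcitonin, lower (difference -0.89, SE 0.27, adjusted p = 0.0147), and Calca was no longer called without silicon 1 (adjusted p = 0.0577). Casr, the calcium receptor, had a median of 2.27 CPM in muscle-rich libraries and was at most at 0.41 in muscle-poor ones, while Pth and Gcm2, which define parathyroid, stayed at or under 0.24 and 0.44. Foxn1, a factor of thymic and skin epithelium, had a median of 0.74 CPM against at most 0.03. Both genes passed the count filter through the muscle-rich libraries, so no test is given for them. Psmb11, which is particular to the thymic cortex, was at most at 0.07 CPM in either class. Of 7 thymus genes tested 1 more was called, the low-level Aire, which was lost without any 1 of 8 libraries.

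Heart muscle was present in both classes. Of 17 cardiac genes 3 rose and 0 fell, where 20.8% of all genes tested rose, with a median difference of 0.08. Direction differed between the groups, and that difference was not tested for the list. On log2(CPM + 0.5), the cardiac median was 1.33 in mock (15 of 17 genes positive) and 1.01 in mock + NR (14 of 17). It was -0.5 in silicon and -0.2 in silicon + NR (5 of 17 in each). Myh6 ran from 9.85 to 1736 CPM in muscle-rich and from 28.5 to 1482 in muscle-poor libraries (difference 0.24, SE 0.69, adjusted p = 0.816). Nppa, the atrial natriuretic peptide, ran from 5.18 to 2024 against 5.25 to 2740, and Myl3 alone among the cardiac genes separated the classes, at 210.5 to 2908 against 2.21 to 70.7. Myl3 is a light chain that slow skeletal fibres also make, and Csrp3 and Actc1, the other 2 that rose, are also made by skeletal muscle.

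Some genes of tendon, nerve and connective tissue were higher in muscle-rich libraries. Of 4 tendon genes tested Scx and Thbs4 rose. Scx, the factor of tendon cells, had a median of 33.8 CPM against 5.80 (difference 2.47, SE 0.28, adjusted p = 5.18e-07), while Tnmd was at most at 0.32 CPM outside silicon 4, where it was at 2.91. Of 9 Schwann cell genes 4 rose, among them Sox10, the factor of Schwann cell identity, and Cdh19. Cdh19, a cadherin of Schwann cell precursors, had a median of 4.46 CPM against 0.68 (difference 2.74, SE 0.34, adjusted p = 1.9e-06). Of 14 fibroblast genes 4 rose, where 20.8% of all genes tested did, among them Lum and Dcn, small proteoglycans of collagen fibrils, by 2.24 and 0.94 (SE 0.30 and 0.17, adjusted p = 5e-06 and 0.000212). Fibroblast genes lower numbered 0, but 4 without silicon 3 and 3 without mock + NR 5.

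Genes of smooth muscle, fat, mesothelium, bone and liver were mostly not called. Of all genes tested 20.8% were called higher and 14% lower. Of 10 smooth muscle genes 4 rose, and Des, shared with skeletal fibres, led them at 513 to 4488 CPM against 130 to 501. Acta2 and Myh11, which define smooth muscle, differed by 0.12 and 0.01 (SE 0.28 and 0.30, adjusted p = 0.778 and 0.992). Of 10 fat cell genes 1 rose, the low-level Elovl3. Adipoq ran from 3.49 to 363 CPM against 1.65 to 105. Of 8 mesothelial genes Bnc1 and Wt1 rose, and Wt1 was lost without any 1 of 16 libraries. Hrnr, shared by skin and other squamous epithelia, rose among 3 tested genes of epidermis and hair. The 1 bone gene and the 6 liver genes tested gave no call.

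**Figure D4:**
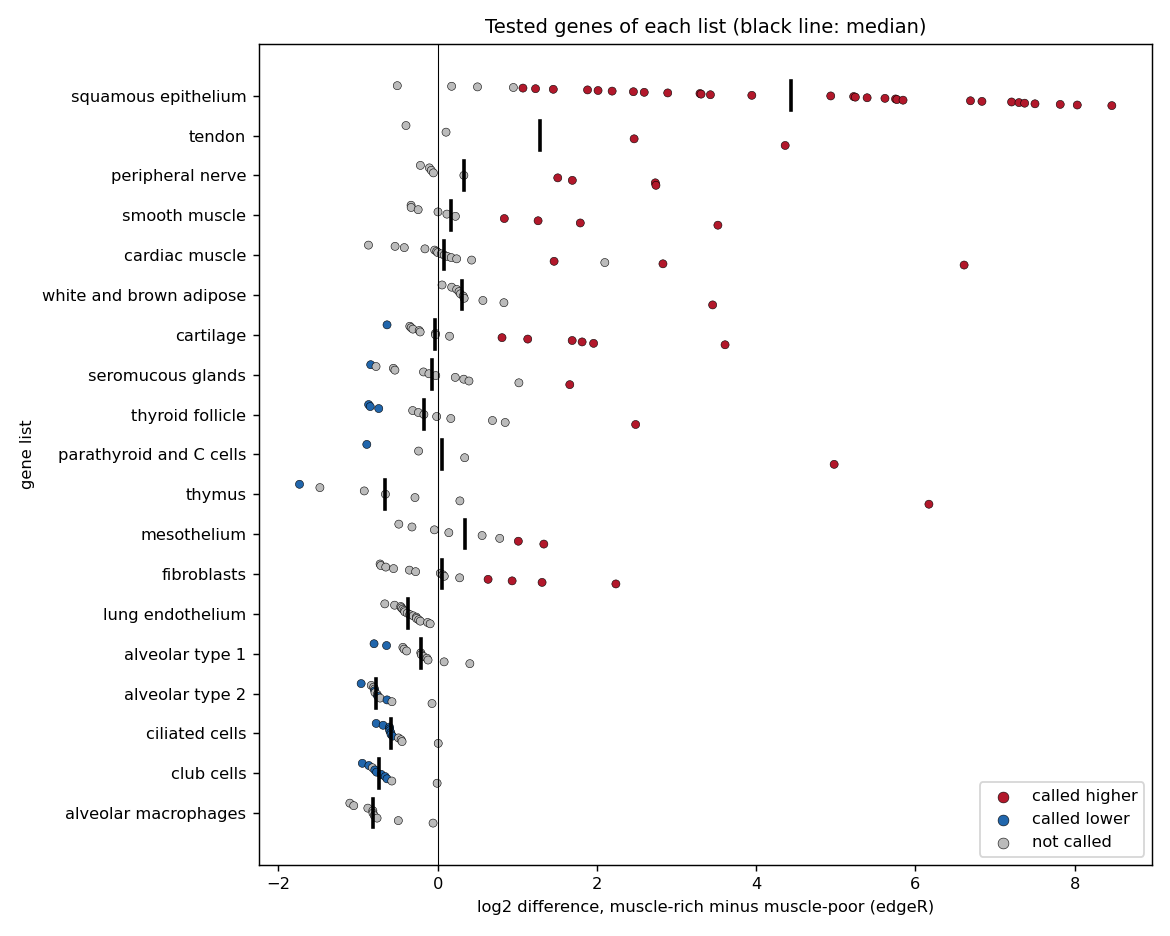
Log2 difference between muscle-rich and muscle-poor libraries for each tested gene of 19 lists, with called genes in colour and the median as a black line. Squamous genes reach 8.47 and the median is 4.44, while the medians of the lung epithelium lists lie to the left of 0.

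Lung genes were lower in muscle-rich libraries, most often those of the airway lining. Of 10 club cell genes 7 fell and 0 rose, with a median of -0.74, and of 12 ciliated cell genes 8 fell and 0 rose, with a median of -0.59. Of all genes tested 14% were called lower. Scgb1a1 (chromosome 19, 9083636 to 9087958) ran from 25010 to 159220 CPM against 101674 to 301070, a difference of -0.82 (SE 0.33) that did not pass (adjusted p = 0.0553). Hp, which encodes haptoglobin, fell from a median of 3187 to 1438 CPM (difference -0.95, SE 0.24, adjusted p = 0.00389). Foxj1, the master regulator of motile cilia, fell from 151 to 73.1 CPM (difference -0.77, SE 0.22, adjusted p = 0.00933). The ciliated count was 2 without silicon 1.

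Alveolar genes moved less clearly. Of 12 genes of type 2 cells, which make surfactant, 4 fell, among them Abca3, a lipid transporter of surfactant, from a median of 74.0 to 49.3 CPM (difference -0.64, SE 0.17, adjusted p = 0.00609). That count was 8 without silicon 3, 9 without mock + NR 5 and 2 without silicon + NR 4. Of 12 type 1 genes 2 fell, and 1 fell without silicon + NR 1, silicon + NR 4, mock 1 or mock 3. The type 1 count was near the share of all genes tested that were called lower, 14%. With voom 10 type 1 and 11 type 2 genes fell, and without silicon 3 and mock + NR 5 together 8 and 11. Lung endothelium (16 genes) and alveolar macrophages (9 genes) gave no call, with medians of -0.37 and -0.81. Their direction differed between the 4 groups, and that difference was not tested. On log2(CPM + 0.5), the endothelial median was -1.14 in mock, 0.06 in mock + NR and -1.86 in silicon + NR, but 1.16 in silicon, where 16 of 16 genes were positive. Type 1 genes had medians of -1.04, 0.19 and -1.63 in the same groups and 1.10 in silicon, and macrophage genes -1.12, -0.33 and -0.93 and 0.78 in silicon. Type 2 genes also differed in direction, with medians of -1.47, -0.4 and -1.94 in the same groups and 0.3 in silicon, where 8 of 12 were positive. The silicon group had 2 muscle-poor libraries, and 1 of them was silicon 3. Surfactant gene Sftpc was detected in every library, at 307 to 13364 CPM against 325 to 36039.

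Because muscle genes took up to 15.9% of counts, the scaling of the libraries bears on these falls. With trimmed-mean scaling 3611 genes were higher and 2433 lower, so 59.7% of called genes were higher. By library totals alone 2770 were higher and 3088 lower, 47.3% higher, and the median of all genes moved from -0.03 to -0.15. Total counts ran from 18232729 to 35751065 in muscle-rich and from 26442338 to 35230361 in muscle-poor libraries. The ribosomal RNA precursor Rn45s was at 200006 CPM in mock 4 and at 11175 to 64528 in the other 24 libraries. The part of depth and of Rn45s in these results was not tested beyond leaving out mock 4, which gave 3903 genes higher and 2899 lower.

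**Figure D5:**
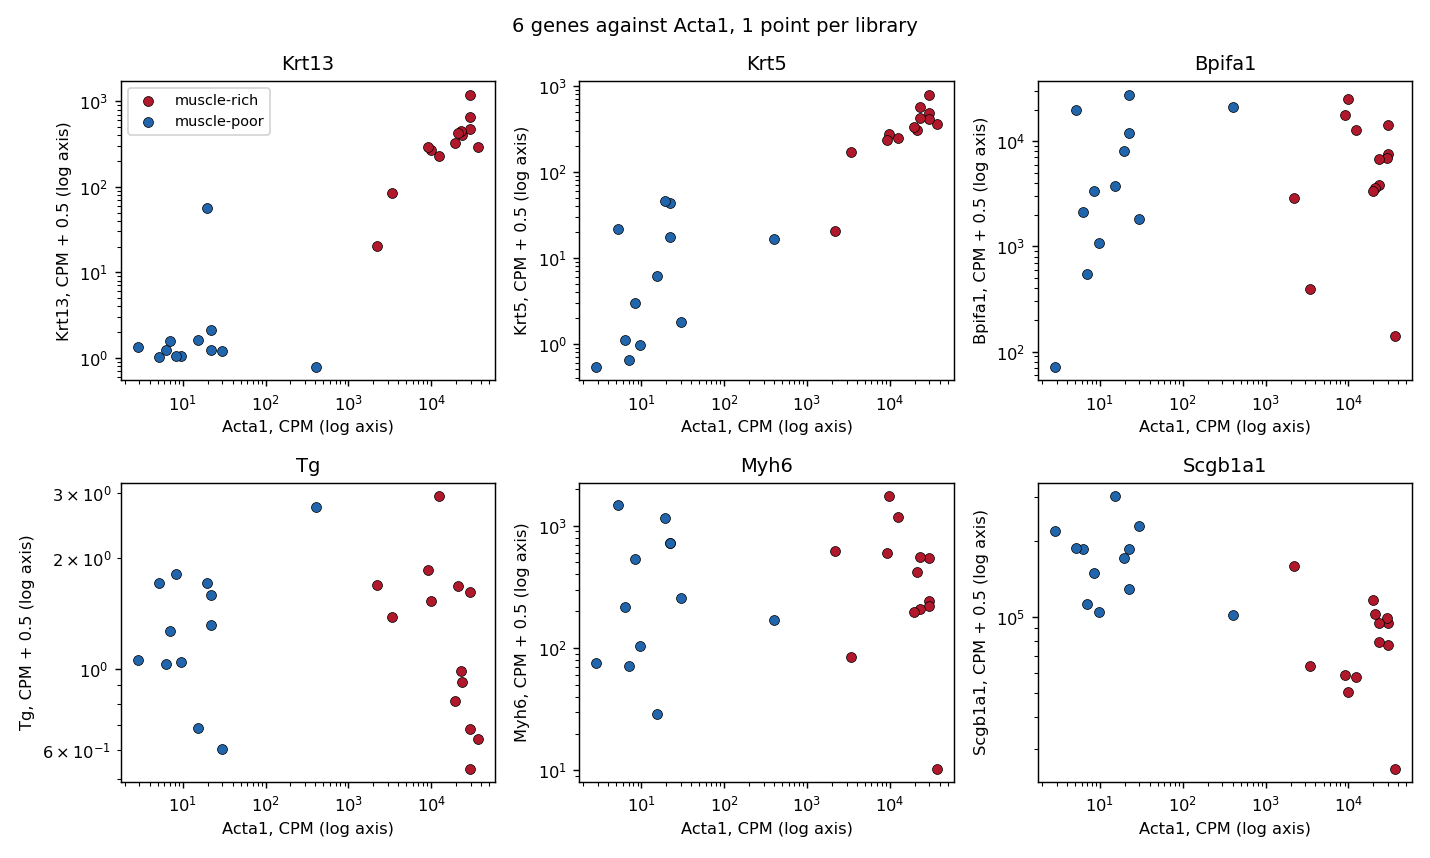
CPM of 6 genes against Acta1 in the 25 libraries, 1 point each, on log axes with 0.5 added to the vertical values. Krt13 and Krt5 are high at the right, Bpifa1, Tg and Myh6 cover similar ranges in both classes, and Scgb1a1 is lower at the right.

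Within the muscle-rich class the markers of other tissues did not rise with Acta1. Pearson's r with Acta1 was -0.08 for Col2a1 (adjusted p = 0.803), -0.52 for Muc19 (0.116), -0.54 for Tg (0.116) and -0.27 for Myh6 (0.441), by permutation over 13 libraries. Spearman's rho was 0.02, -0.63, -0.67 and -0.42 (adjusted permutation p = 0.961, 0.0426, 0.0383 and 0.187). Col2a1, Muc19 and Tg stayed under 2.5 CPM, so their correlations rest on few reads. Without the 2 libraries farthest from the median, r was -0.30, -0.47, -0.70 and -0.70 (adjusted p = 0.371, 0.179, 0.0442 and 0.0442).

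Among the 12 genes that rose most outside the muscle lists, keratinocyte and muscle genes stood side by side. Mt4, a metallothionein of squamous epithelium, rose by 8.85, from a median of 0.05 CPM (at most 15.1) to 69.8. It was near 0 in typical muscle-poor libraries and was picked for its rise, so no test is given for it. Krtdap, Krt13, Lgals7, a galectin of stratified epithelium, and Cnfn, of the cornified envelope, rose by 7.82 to 8.47. Sim2, a transcription factor, separated the classes at 11.3 to 204 CPM against at most 3.17. H19, an imprinted non-coding RNA, did so at 22.8 to 455 CPM against at most 9.30. The others were Nctc1, Cacng6, Mybph, Lrrc30 and Dusp13, of which Mybph encodes a myosin-binding protein and Cacng6 a calcium channel subunit of muscle. Lrrc30 was at 98.9 CPM in silicon 4 and at most at 3.31 in the other 24 libraries. Its difference of 8.03 (SE 1.42) was 5.93 (SE 0.84) without silicon 4.

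The 12 genes that fell most were mostly genes of immune cells, and many of their calls depended on which libraries were included. Ccl22, a chemokine of dendritic cells, had the largest fall at -1.65 (SE 0.63, adjusted p = 0.0446), with 0.88 to 101 CPM against 4.03 to 155. The lymphoid stroma chemokine Ccl19 stood at 447 CPM in silicon 3 and at 419 in mock + NR 4, both muscle-poor, at 232 in the muscle-rich silicon 6, and at most at 21.4 in the other 22. Without these 3 libraries 8 of the 12 were no longer called, and 4 remained: Ly6c2, Epsti1, Zap70 and Klrd1. Without silicon 3 alone 10 were lost, without mock + NR 4 alone 5 and without silicon 6 alone 0. Ccl22 was lost without any 1 of 16 libraries and Ms4a4c without any 1 of 15, most of them not lymphoid-rich. The part of lymphoid content in these losses was not tested. Zap70, a kinase of T cell receptor signalling, had a log2 difference of -1.18 (SE 0.27, adjusted p = 0.00167), and Klrd1, a receptor of natural killer cells, one of -1.15 (SE 0.30, adjusted p = 0.00562). No member of the B cell list (8 tested) or T cell list (7 tested) passed.

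The class was set beside sex and irradiation. Muscle-rich libraries came from 6 of 9 females and 7 of 16 males (Fisher's exact test, two-sided, p = 0.411). In the fit with the class, silicon against mock gave 0 called genes by edgeR's quasi-likelihood test (smallest adjusted p = 0.179), with 2707 genes at an unadjusted p under 0.05. Without the class term it also gave 0 (smallest adjusted p = 0.131, 2531 genes at an unadjusted p under 0.05), and DESeq2 called 213 with the class. The class difference was also compared between silicon and silicon + NR together and mock and mock + NR together, by edgeR's quasi-likelihood test. It was not called as differing for any gene (0 called, smallest adjusted p = 1, 464 at an unadjusted p under 0.05). P-values here measure the spread between mice of 1 library each.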

How the data were processed

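Lung RNA of 25 mice was analysed, with 12 GCR and gamma libraries for comparison. Trizol RNA was turned into cDNA by SMART-seq v4 and into libraries by Nextera XT, an unstranded kit, per the labels' protocols. STAR 2.5.2, HTSeq 0.13.5, Trimmomatic 0.36 and FastQC 0.11.4 are named with mm10 in the submitters' processing notes. The sources used here give neither their settings nor the annotation, and overlapping or antisense genes cannot be told apart. The authors deposited 1 table of whole-number read counts for 24421 gene symbols, not normalized. Coordinates and exon lengths came from GENCODE M21 on mm10, which matched 95.72% of symbols. Reads carry no molecular identifiers, so they are not independent molecules.

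CPM is the count divided by the column sum, times 1000000. Counts were tested with edgeR 4.0.16 in R 4.3.3 (TMM, filterByExpr, quasi-likelihood) on group plus class, leaving 17364 genes. A gene was called at an adjusted p under 0.05. Standard errors were derived from each fold change with its F statistic. Correlations used log2(CPM + 0.5) and 100000 permutations. Simulated counts with known changes gave 75 of 100 genes changed 2-fold and 94 of 100 changed 4-fold, for this comparison on 17181 genes. Libraries of 1 group differed beyond sampling noise in every pair (chi-square of 31.03 to 1003 per degree of freedom), so all were kept.

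The members, the 29 gene lists (371 genes) and the limits were chosen with earlier results of these data known. Trac, Cnmd, Snorc and Flg are listed but were not analysed here, and some other listed genes are counted but not reported by name. Named genes are the defining markers of each tissue, the myosins and myogenic regulators, the 12 largest rises and 12 largest falls (average log2 CPM 2 or higher) outside the muscle lists and predicted genes, and the 3 of smallest p in each list with calls. Other genes named, such as Tnnc2, Atp2a1, Mb, Chrna1, Musk, Myl2, Tnnt1, Trp63, Iyd, Dio1, Scgb1a1 and Sftpc, were chosen after their values were seen. Alternatives tried were DESeq2 1.42.0, limma voom (limma 3.58.1), other scalings, no filter, sex in the model, no group term, other Acta1 limits, a slope on Acta1, all 37 libraries and leaving out libraries.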

Additional observations from a re-analysis of the deposited data

Results flagged for a closer look

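Dixon's test was run on 33 defining markers, 99 tests in all. It covered the muscle-rich mock (n = 4) and silicon (n = 5) libraries and the muscle-poor silicon + NR libraries (n = 4). In the last 2 of these sets, 6 values stood apart from the rest of their set. Chance flags about 1 in 20 independent tests, which is about the share found here. The flags were not independent, since Krt14, Krt13, Sprr3 and Alb were all flagged in silicon + NR 5. Thbs4, a matrix protein of tendon, was at 61.5 CPM in silicon 4 and at 15.6 to 22.9 in the other muscle-rich silicon libraries. In silicon + NR 5, Krt14 was at 16.7 CPM (0.23 to 0.41 in the other 3 muscle-poor silicon + NR libraries), Krt13 at 56.1 (0.69 to 0.73), Sprr3 at 1.07 (listed at 0) and Alb, the albumin gene of liver, at 1.97 (0.53 to 0.59). Myh4 was at 1.04 CPM in silicon + NR 3 and at 0.17 to 0.23 in the other 3.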

How the results depend on the processing

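The counts of genes higher and lower kept within 1.5 times of 3611 and 2433 under every alternative tried except 1, voom, which gave 4604 lower genes. They ran from 2799 to 3970 higher and from 2025 to 3148 lower when 1 library was left out. DESeq2 called 213 genes for silicon against mock, where leaving out 1 silicon or mock library gave 0 to 0. Of the 71 named genes with a call, 51 were called under every alternative with a test. Within single groups 5 reversed: Bnc1 in mock (-0.086), Sftpa1 in mock + NR (0.024), Gprc5a in silicon (0.34), Lpcat1 in silicon (0.42) and Aire in silicon + NR (0.049), and the cause was not tested. Without the 2 libraries farthest in Acta1, r was 0.587 for Krt13, -0.703 for Tg and -0.697 for Myh6. When 1 muscle-rich library was left out r ran from 0.809 to 0.94 for Krt13, from -0.269 to 0.03 for Col2a1, from -0.719 to -0.29 for Muc19, from -0.61 to -0.478 for Tg and from -0.516 to -0.049 for Myh6. Pseudocounts of 2 CPM and CPM outside the muscle list changed no correlation's side of the threshold. At other Acta1 limits the odds ratio of females to males was 2.0 (300 CPM) and 1.61 (3000 CPM). Fits without silicon 4 and mock 4 (3819 higher, 2806 lower) and without silicon 3 and mock + NR 5 (3987 and 3421) were chosen after the data were seen. No paired analysis was possible because replicate numbers only name the mice.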

Other observations

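The 12 GCR and gamma libraries, which were not classed and entered only the alternative fit of all 37, held heart and fat in uneven amounts. Nppa was at 17519 and 24514 CPM in gamma 3 and gamma 4, and Myh6 reached 8547 CPM. Their squamous genes were low, with Krt13 at most at 1.90 CPM and Krt5 at most at 13.7. Among the 25 classed libraries, Ucp1, the uncoupling protein of brown fat, ran from 0.14 to 500 CPM in muscle-rich and from 0 to 149 in muscle-poor libraries, highest in mock 5 and silicon 3.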
